A study of Mus musculus with 1187 samples.

Results

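A small set of brain endothelial cells carried messenger RNA for the elastic fibre genes that large arteries use, and these cells are described here. A cell was counted as a member when at least 2 of 5 genes (Fbln5, Fbln2, Mgp, Eln and Fbn1, the rule genes) reached 50 CPM, the read count scaled to a library of 1000000 reads. The rule chose 60 of 1187 cells, 5.05% (95% Clopper-Pearson interval 3.88 to 6.46%, counting error only). The cells came from brains of adult, 3-month-old C57BL/6 mice that carried either 1 or 2 copies of the Pdgfb ret allele (Pdgfb ret/+ as control and Pdgfb ret/ret as the pericyte-deficient state), crossed with the Cldn5-GFP and Cspg4-DsRed reporters, so every cell of both genotypes comes from a line with at least 1 ret copy and both reporters. Green, dsRed-negative cells were sorted into wells and sequenced by Smart-seq2, a full-length cDNA method in which each well is its own library without molecular identifiers. The labels give 590 ret/+ and 597 ret/ret cells and name no animal, while the columns of the table name only a plate and a well. No cell could therefore be given a genotype, all cells form 1 pooled sample, and the 4 plates (521, 522, 523 and 524) are shown separately as the only view of spread. With 1 sample there is no test and no p-value, so "higher" and "lower" below are descriptions of this pool of cells.

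Elastic fibres give arteries their recoil. Elastin forms the core, fibrillin microfibrils form the scaffold, fibulins help to lay elastin on that scaffold, and matrix Gla protein keeps the wall free of calcium. In arteries most elastin is made by smooth muscle cells, and the endothelial layer rests on the innermost elastic sheet. Arterial endothelium is set apart from capillary and venous endothelium by Notch signalling and SOX transcription factors, by its connexins and by its vasoactive enzymes, whereas capillary endothelium of the brain carries most of the nutrient transporters of the blood-brain barrier.

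The label of the cells was checked against genes the rule did not use. Cldn5, the claudin of endothelial tight junctions, was read in every member, with a lowest value of 1278 CPM, a median of 3878 CPM and a highest of 7159 CPM. The cells were sorted on the Cldn5-GFP reporter, and Cldn5 was also read in 100% of cells with 0 rule genes, at 4053 CPM. Cldn5 therefore does not set the members apart. At least 2 of 5 arterial genes (Gkn3, Bmx, Sema3g, Vegfc and Hey1) reached 50 CPM in 55 of the 60 members, 91.7% (Clopper-Pearson interval 81.6 to 97.2%), and in 16.4% of all other cells. Of the other 5 members, 4 had 1 of the arterial genes and 1 had none. Arterial genes were thus read in most members. Nothing in the table measures the width of a vessel, so the vessel size in the working name could not be checked, and the cells are called members or elastic matrix cells here.

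The 3 stretches of DNA below lie upstream of genes of this set: Fbln5, the rule gene with the highest summed level, and Gja4 and Bmx, arterial genes that the rule did not use. Each is the 250 bases before the start of the gene, from RefSeq on GRCm38.p6, written 5′ to 3′ on the strand of the gene, with motif matches, or their reverse complements, in capitals. The motifs searched on both strands were TGGGAA, the core bound by RBPJ (the DNA-binding partner of Notch), ACAAT, a core bound by SOX factors, and GGGTGTG, a core bound by KLF factors. They do not overlap each other in these windows.

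Fbln5 (chr12:101819120-101819369, minus strand): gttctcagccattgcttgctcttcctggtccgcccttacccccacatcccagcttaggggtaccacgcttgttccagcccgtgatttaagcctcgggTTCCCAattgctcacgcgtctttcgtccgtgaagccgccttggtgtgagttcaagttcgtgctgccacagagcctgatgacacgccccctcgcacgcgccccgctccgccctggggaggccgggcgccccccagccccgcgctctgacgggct
Gja4 (chr4:127314040-127314289, minus strand): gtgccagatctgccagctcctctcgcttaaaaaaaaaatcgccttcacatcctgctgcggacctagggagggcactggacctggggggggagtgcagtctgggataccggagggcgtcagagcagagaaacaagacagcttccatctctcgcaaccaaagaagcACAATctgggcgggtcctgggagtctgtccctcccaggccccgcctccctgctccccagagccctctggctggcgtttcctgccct
Bmx (chrX:164258194-164258443, minus strand): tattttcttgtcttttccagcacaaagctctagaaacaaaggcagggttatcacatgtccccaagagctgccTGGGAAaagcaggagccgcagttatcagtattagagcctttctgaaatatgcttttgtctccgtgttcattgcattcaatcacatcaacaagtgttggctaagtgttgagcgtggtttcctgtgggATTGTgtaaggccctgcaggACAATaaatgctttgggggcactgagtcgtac

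The Fbln5 window held 1 RBPJ match, the Gja4 window 1 SOX match and the Bmx window 1 RBPJ and 2 SOX matches, and none held the KLF letters. Among 32851 RefSeq promoters, 21.6% held the RBPJ letters in the same 250 bases, 27.7% the SOX letters and 6.93% the KLF letters. Matches this common are a description of the windows and show neither binding nor use. Another Fbln5 entry, from a different start, and the windows of Fbln2, Gja5 and Cytl1 held none of the 3 motifs, and that of Fbn1 held 1 RBPJ match. Of the other rule genes, Fbln2 and Fbn1 had an entry that is not printed, and Eln and Mgp are named only.

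The members did not stand apart in depth. Their median was 362073 reads a cell against 360947 in all other cells, over a range of 100779 to 584112 in all cells. A median of 4853 genes had a read in a member and 4443 in another cell, and mitochondrial genes took 1.33% and 1.40% of the reads. No doublet caller was run. Of the 60 members, 3 had at least 3 markers of another cell type at 100 CPM or more: 2 had fibroblast and pericyte genes and 1 had erythroid genes. These 3 cells matter for the collagen and proteoglycan results below, which are given with and without them.

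The 5 rule genes chose the members, so their values are a description and support nothing. Fbln5, a fibulin needed for elastic fibre assembly (chromosome 12 from 101746565 to 101819055, minus strand), summed to 864 CPM in the members (Poisson interval 852 to 877, counting error only) and 1.66 CPM in all other cells. On plates 521, 522, 523 and 524 the members held 568, 881, 1126 and 949 CPM. Over single members Fbln5 ran from 0 to 5024 CPM with a median of 489, and 37 members reached 50 CPM. The gene was thus very high in some members and unread in others.

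Mgp, the inhibitor of calcification (chromosome 6 from 136872435 to 136875823, minus strand), summed to 570.3 CPM in the members (560.2 to 581) and 2.84 in all other cells, and 47 members reached 50 CPM. Fbln2, a fibulin of vessel walls and basement membranes (chromosome 6 from 91212455 to 91272540, plus strand), summed to 518 CPM (509 to 528) against 15.4, and it reached 50 CPM in the most members, 50. It was also the rule gene read most often outside the set, at 50 CPM in 33 other cells, where its level on the 4 plates was 1.18, 5.11, 35.6 and 19.7 CPM. Eln, tropoelastin (chromosome 5 from 134702593 to 134747323, minus strand), summed to 265 CPM (258 to 272) against 2.76, and 40 members reached 50 CPM. Fbn1, fibrillin-1 (chromosome 2 from 125300594 to 125507993, minus strand), was the lowest, at 137 CPM (132 to 142) against 1.46, with 24 members at 50 CPM. An annotated gene on the opposite strand overlaps the first exon of a longer Fbn1 transcript, and without strand information its reads cannot be told apart from those of Fbn1. Per kilobase of exon, the scale on which different genes can be compared, the members' levels were 480.4 CPM for Mgp, 125 for Fbln5, 81.4 for Fbln2, 32.7 for Eln and 11.3 for Fbn1. Mgp was therefore the most abundant message of the 5 for its length, although Fbln5 had more reads.

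**Figure D1:**
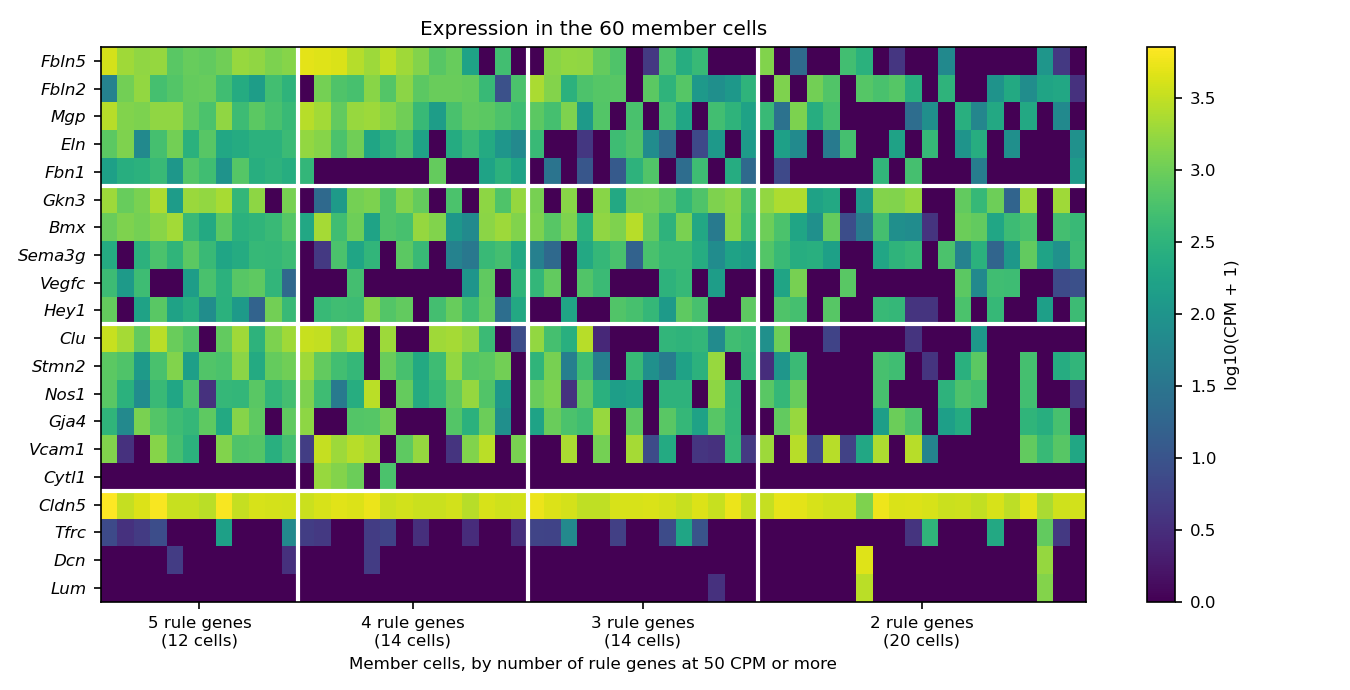
Each column is 1 of the 60 members and each row a gene, with colour giving log10(CPM + 1). Columns are grouped by the number of rule genes at 50 CPM or more. The rule genes are the top block, the 5 arterial genes the next, other genes higher in the members the third, and Cldn5, Tfrc and fibroblast genes the last. Cldn5 was read in all members, while Dcn and Lum, fibroblast genes, were high in 2 cells with 2 rule genes.

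The members varied among themselves. All 5 rule genes reached 50 CPM in 12 members, 4 of them in 14, 3 in 14 and 2 in 20. The commonest sets short of all 5 were Fbln5, Fbln2, Mgp and Eln in 9 members, Fbln5, Fbln2 and Mgp in 6, Fbln2 and Mgp in 5, and Mgp and Eln in 4. The pair seen together most often was Fbln2 with Mgp, in 39 members, and the rarest was Fbln5 with Fbn1, in 16. A few cells sat close to the threshold. In the 5 members just inside, the second highest rule gene was at 58.3, 65.9, 66.6, 68.6 and 77.7 CPM, and in the 5 cells just outside at 49.0, 44.3, 43.8, 43.6 and 36.2 CPM. The second highest rule gene was under 100 CPM in 10 members and at 25 CPM or more in 9 other cells, and 79 other cells had exactly 1 rule gene. The share of cells was 5.67% on plate 521 (17 of 300), 5.52% on plate 522 (16 of 290), 5.26% on plate 523 (15 of 285) and 3.85% on plate 524 (12 of 312). The Clopper-Pearson intervals of the plates overlapped, with bounds from 2.00 to 8.92%.

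Genes outside the rule stepped with the number of rule genes. Among cells with 0, 1, 2, 3, 4 and 5 rule genes, the share with at least 2 of the 5 arterial genes was 13.9, 49.4, 80, 100, 92.9 and 100%. Over the same steps the summed level of the 22 arterial markers was 4360.0, 6773, 9105, 12044, 13144 and 14208 CPM. That of the 10 capillary markers was 7624, 5869, 3181, 2037, 702 and 1189.9 CPM, and that of the 24 barrier transporters was 24784, 21568, 14430.2, 13796, 11584 and 11757 CPM. Notch genes summed to 1435, 1832, 2126, 2409, 3259.7 and 3317 CPM and connexins with ion channels to 674, 843, 1444, 1552, 2006 and 2109.9 CPM. Junction genes stayed level, at 12949.9, 12504, 12510.2, 12629, 12093 and 12200.1 CPM. Cells with 1 rule gene lay between the members and the rest for all of these lists except junctions. The steps hold 1048, 79, 20, 14, 14 and 12 cells, so the upper ones rest on few cells, and from 3 to 5 rule genes not every list kept its order.

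**Figure D2:**
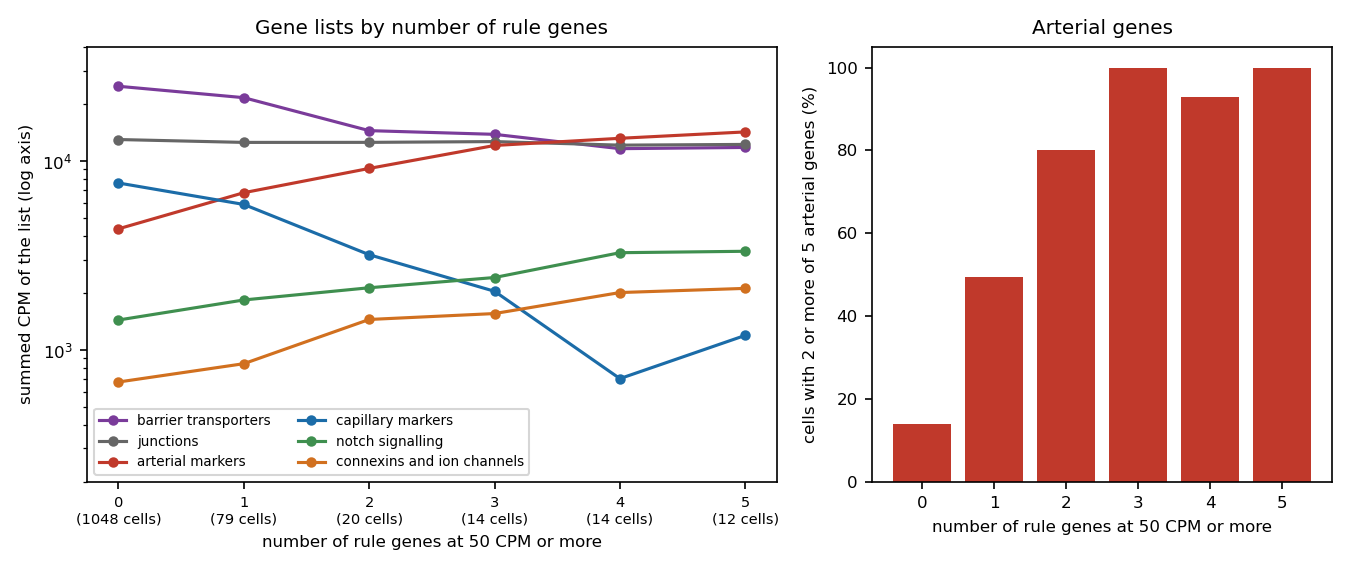
The left panel gives the summed CPM of 6 gene lists (log axis) in cells with 0 to 5 rule genes, and the right panel the percentage of those cells with at least 2 of 5 arterial genes. Arterial, Notch and connexin lists were higher with more rule genes, capillary and barrier lists lower, and junction genes were level.

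Single genes differed in where along these steps they appeared. Clu, which encodes the secreted chaperone clusterin, was at 20.7, 52.0, 58.1, 425, 1243 and 1288 CPM over 0 to 5 rule genes, so it was low until 3 rule genes were present. Emp1, an epithelial membrane protein gene, followed the same course at 1.46, 2.33, 4.37, 91.4, 158 and 181 CPM. Alpl, tissue-nonspecific alkaline phosphatase, was already at 532 CPM with 1 rule gene and reached 1915 with 5, from 83.0 with none. Jag1, a Notch ligand, was at 89.8 and 113 CPM with 0 and 1 rule genes and at 362, 507, 859 and 845 in members. Tfrc, the transferrin receptor of capillaries and veins, was at 1007, 524, 79.0, 23.6, 1.57 and 14.4 CPM.

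Compared with the 1127 other cells, the members were at least 2-fold higher in 18 of 22 arterial markers and at least 2-fold lower in 17 of 24 barrier transporters and 8 of 10 capillary markers. Of 8967 genes at 20 CPM or more on either side, 736 (8.21%) were at least 2-fold higher in the members and 784 (8.74%) at least 2-fold lower, as a log2 ratio of summed CPM with a prior of 1 CPM. The median over all of these genes was -0.01. The genes named as largest were chosen from those that went the same way on all 4 plates, so their direction by plate was fixed by the choice. A gene at 20 CPM only in the members must come out higher, so counts of higher genes in the lists are read with that in mind.

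The largest differences upward belonged to a varied group of genes. Nos1, neuronal nitric oxide synthase, summed to 391 CPM in the members (382 to 399) and 4.87 in all other cells, a log2 ratio of 6.06. It reached 50 CPM in 40 of 60 members and 12 of 1127 other cells. By plate, members held 496, 258, 424 and 373 CPM and other cells 5.53, 3.07, 7.09 and 3.74 CPM. That direction was fixed by how Nos1 was chosen. Nos3, the endothelial synthase, was at 469 and 352 CPM, a log2 ratio of 0.41, short of 2-fold.

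Serpinf1, pigment epithelium-derived factor, had a log2 ratio of 6.26 and Pi16, a secreted peptidase inhibitor, one of 6.19, but each reached 50 CPM in only 16 members. Clu summed to 645 CPM against 22.9 (log2 ratio 4.76), with 586, 606, 704 and 712 CPM on the 4 plates in members and 46.1, 14.3, 28.2 and 2.77 in other cells. Stmn2, a tubulin-binding stathmin and known arterial marker, was at 432 CPM against 19.1, with 515, 428, 327 and 446 CPM in members by plate. Atp2a3, a calcium pump of the endoplasmic reticulum, was at 377 against 11.3, with 301, 498, 299.8 and 420.3 CPM by plate. All of these were above the other cells on every plate, as the choice of the genes required. Gper1, the G protein-coupled estrogen receptor, had a log2 ratio of 4.37, and Laptm5, a lysosomal membrane protein, one of 4.84.

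Itgb4, the integrin beta 4 subunit of hemidesmosomes, was at 78.3 CPM against 2.42 (log2 ratio 4.54). Dsp, desmoplakin, was at 102 against 3.06 (4.67), and Ddr1, a collagen receptor kinase, at 30.1 against 0.234 (4.66). Lama3, a laminin chain that binds that integrin, was not among the 15 largest, at 68.8 against 7.98 (2.96). The first 3 were each high in a minority of members: 50 CPM was reached by Itgb4 in 21, by Dsp in 17 and by Ddr1 in 12 of 60. Prune2 (5.35), Kazald1 (5.32), Emp1 (5.21) and Col14a1 (4.93) completed the 15 largest.

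The 10 largest differences downward were of several kinds of gene. Angpt2, a TIE2 ligand, was at 0.799 CPM in the members and 233 in all other cells (log2 ratio -7.02), and no member reached 50 CPM. Fmo2, a flavin monooxygenase, was at 0.235 against 146 (-6.89). Slc7a5, the large neutral amino acid transporter, was at 53.3 against 1259.7 (-4.54). It reached 50 CPM in 7 of 60 members and 1034 of 1127 other cells. Slc1a1, a glutamate transporter, was at 8.13 against 358 (-5.30), Tfrc at 36.3 against 974 (-4.71) and Ddc, aromatic amino acid decarboxylase, at 8.98 against 244 (-4.62). Ctla2a and Ctla2b, protease inhibitor genes that lie next to each other and are alike in sequence, had log2 ratios of -5.33 and -5.46, and reads shared between copies could not be told apart. Bok, a BCL2 family gene, was at 0.564 against 64.5 (-5.39) and Cacna1e, a calcium channel subunit, at 1.22 against 81.6 (-5.22).

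A closer comparison set the members beside the 185 cells that had at least 2 of the 5 arterial genes but fewer than 2 rule genes. Of 8957 genes, 733 (8.18%) were at least 2-fold higher in the members and 756 (8.44%) at least 2-fold lower, with a median over all genes of -0.01. These counts were close to those against all other cells. The 2 comparisons rest on 185 and 1127 cells, so the counts do not measure how far the members lie from each group. The upward genes were led by Emp1, at 92.6 CPM in the members and 0.642 in arterial-marker cells (log2 ratio 5.83), Serpinf1 (5.63), Pi16 (5.57), Ddr1 (4.94) and Col5a2, a fibrillar collagen chain (4.76). Clu was at 645 against 28.2 CPM (4.47) and Nos1 at 391 against 23.6 (3.99). Kazald1 (4.47), Itga9, an integrin alpha subunit (4.12), and Itgb4 (3.71) followed.

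Lower than in arterial-marker cells were Angpt2 (0.799 against 164 CPM, log2 ratio -6.52), Ctla2b (-4.80), Ddc (-4.44), Ctla2a (-4.38), Slc1a1 (-4.37) and Slc7a5 (-3.82). Lrp8, a reelin and apolipoprotein E receptor, had a log2 ratio of -3.81, Mt1, a metallothionein, one of -3.38, and Abcg1, a cholesterol exporter, one of -3.28. Mfsd2a, the lysolipid transporter of the barrier, was at 63.7 CPM in the members and at 672 in arterial-marker cells (-3.38), the latter level close to the 637 of all other cells. Arterial-marker cells outside the set thus held as much Mfsd2a as the rest of the cells, and the members far less.

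**Figure D3:**
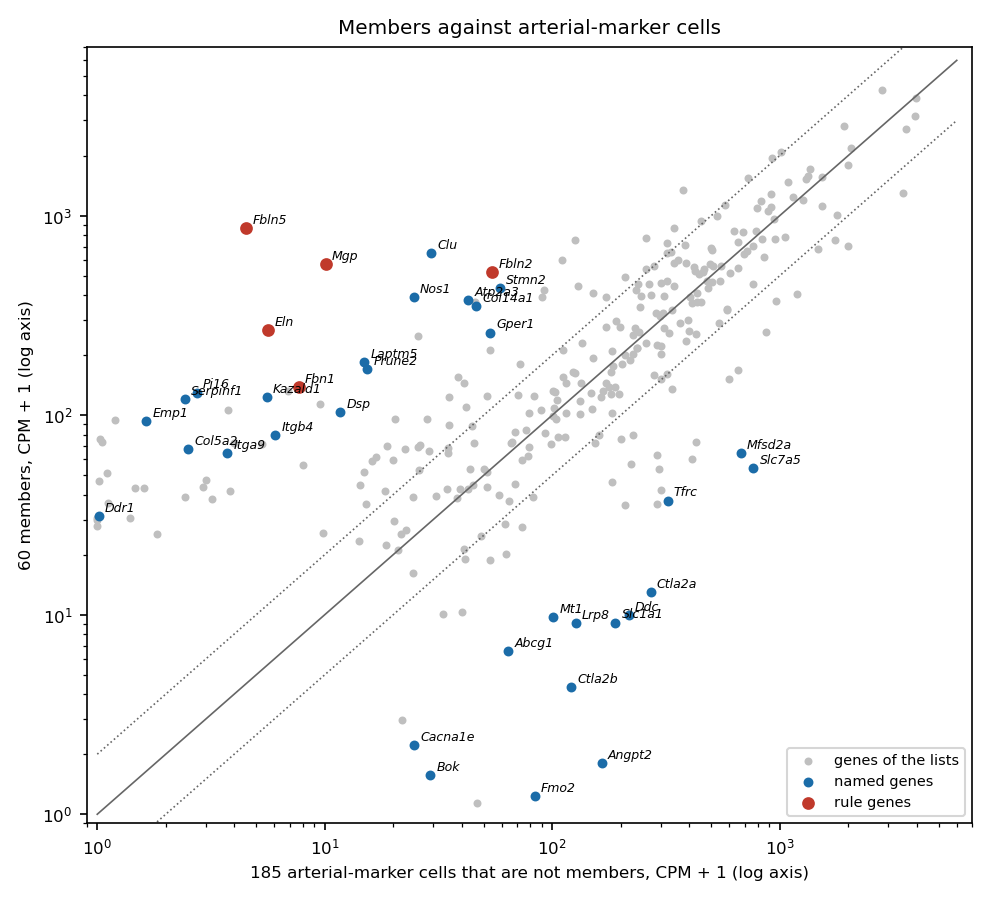
Each point is a gene, with its summed CPM + 1 in the 185 arterial-marker cells that are not members on the x axis and in the 60 members on the y axis (both log axes). The full line marks equal levels and the dotted lines 2-fold. Rule genes are red, named genes blue and the other genes of the lists grey. Clu and Nos1 lie far above the lines, and Angpt2, Slc7a5 and Mfsd2a far below.

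Elastic fibre genes other than the rule genes were mostly too low to measure. Of 22 in the list, 6 reached 20 CPM on either side, with 5 higher and none lower against all other cells, beside the 8.21% of all genes that were higher. Their median log2 ratio was 1.49, and on the 4 plates 2.58, 0.04, 1.49 and 0.18. Of the 5 higher genes, Ltbp1 and Efemp1 were under 20 CPM in all other cells, so they had to come out higher. Against arterial-marker cells 4 of 6 were higher, beside 8.18% of all genes. The median was 1.15, with plate values of 1.81, 0.30, 1.22 and -0.37, so the sign turned on plate 524. Ltbp4, the latent TGF-beta binding protein that works with fibulin-5, carried the list, at 1540.2 CPM in the members, 446 in all other cells and 721 in arterial-marker cells. It reached 50 CPM in every member, with 1520.4, 1283, 1697 and 1718 CPM on the 4 plates. Ltbp1 was at 43.9 against 6.46 CPM, Efemp2, also called fibulin-4, at 65.2 against 29.2, and Mmrn2, a multimerin of the endothelial surface, at 460.2 against 202. Efemp2 went the other way on plate 524, at 10.0 CPM in members and 47.0 in other cells, and Ltbp1 on plate 522, at 3.91 and 11.0. Efemp1, fibulin-3, had a log2 ratio of 3.11 with all members and -2.34 without the cells that had markers of another type, so its excess lay in those cells.

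Collagens rested on few cells. Of 18 fibrillar and associated collagens, 9 could be measured. All 9 were under 20 CPM in all other cells, so they were measured only through the members and had to come out higher. They had a median log2 ratio of 4.52 against all other cells and 4.20 against arterial-marker cells. Without the cells that had markers of another type, the median over the same 9 genes was 0.63 and 0.55. With at least 3 rule genes required of a member it was -0.23 and -1.36, so its direction turned. Col1a1, Col1a2 and Col3a1, the collagens of fibroblasts, had log2 ratios of 4.10, 4.69 and 4.18 with all members and 0.63, 0.17 and -1.27 without them. Col12a1 and Col15a1 likewise moved from 4.77 to -0.32 and from 4.68 to -0.21. Col14a1, Col18a1, Col8a1 and Col5a2 held, at 4.96, 4.31, 4.57 and 2.74. Col18a1, the source of endostatin, was the broadest, at 389 CPM against 18.5 and at 50 CPM in 43 members.

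The proteoglycan and matricellular list depended on the same cells. Of 29 genes 19 were measured, 10 higher and 3 lower, beside 8.21% and 8.74% of all genes. Of the higher genes, Spp1, Lum, Dcn, Prelp, Cytl1 and Timp2 were under 20 CPM in all other cells. They were measured only through the members and had to come out higher. The median of 1.26 was 0.00 without the cells with other markers and -0.14 with at least 3 rule genes. Spp1, Lum, Dcn and Prelp had log2 ratios of 6.30, 6.17, 5.40 and 4.14 with all members and of -0.19, 0.04, -0.06 and -0.42 without those cells. In the left-out members Dcn was at 2422 CPM and Lum at 1659, and in the kept ones at 0.147 and 0.0491 CPM, with Col3a1 at 0. Without those cells Clu was still at a log2 ratio of 4.93, Timp2 at 2.19, Ecm2 at 1.75 and Timp3, an inhibitor of matrix proteases, at 1.50. Ctgf, a matricellular growth factor gene, was lower, at 34.8 against 352 CPM (-3.30). Of 14 basement membrane genes 13 were measured, with 2 higher and 2 lower, beside 8.21% and 8.74% of all genes. The higher ones were Lama3 and Lamb1, another laminin chain, whose log2 ratio was 1.78 with all members and -2.05 without the cells with other markers. Both Lama3 and Lamb1 were under 20 CPM in all other cells, so they were measured only through the members. Sparc, a collagen-binding protein, was at 751 CPM against 2004 (-1.41), and Col4a1, the main chain of the basement membrane, at 471 against 503 (-0.10).

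The arterial programme was strong in the members. All 22 arterial markers were measured, 18 higher and 1 lower than in all other cells, beside 8.21% and 8.74% of all genes. Stmn2, Vegfc, Gja5, Dkk2 and Cytl1 were under 20 CPM in all other cells, so they had to come out higher. The median log2 ratio of the list was 2.54, with plate values of 2.59, 2.81, 2.17 and 2.38. Alpl was at 1347 CPM against 114, Gkn3, a gastrokine gene of brain arteries, at 866 against 70.3, and Bmx, a tyrosine kinase of arterial endothelium, at 729 against 71.5. In members, Alpl was at 1358, 1619, 1123 and 1246 CPM on the 4 plates, and in other cells at 17.9, 65.6, 166 and 202 CPM, so the other cells differed more between plates than the members did. Tm4sf1, a tetraspanin-like surface protein, had the highest level of the list at 1706 CPM against 831. Cxcl12, a chemokine also listed for capillaries, was the one that was lower, at 699.9 against 1526 (-1.12). Dll4, the Notch ligand of sprouting and arterial cells, was at 203 against 223 (-0.14), and Nrp1, a VEGF co-receptor, at 396 against 413. Against arterial-marker cells, where the 5 genes of their definition were left out, 9 of 17 markers were higher and 1 lower. Of all genes 8.18% were higher and 8.44% lower there. The median of the markers was 1.02.

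Cytl1, a cytokine-like secreted protein, was singled out after its values were seen. It reached 50 CPM in 4 members and was read in 10 other cells. The 4 members held 1818, 964, 570.3 and 1401 CPM, and lay on plate 522, on plate 523 (2 cells) and on plate 524. All 4 had Fbln5, Fbln2, Mgp and Eln at 50 CPM or more and Fbn1 at 0. Their Fbln5 levels, 4582, 2700, 3090 and 4378 CPM, ranked 2, 6, 5 and 3 among all cells. The cell with the highest Fbln5 of all, 5024 CPM on plate 523, had no Cytl1, the highest Eln (1700.3 CPM) and Clu (3364 CPM) of the members, and Gkn3, Sema3g, Vegfc and Hey1 at 0. Bmx in that cell was at 202 CPM, Gja4 at 1587 and Stmn2 at 2012. It was therefore one of the 4 members with a single gene of the 5 arterial ones.

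The 5 Notch genes that were higher were the ligands Jag1 and Jag2, the receptors Notch2 and Notch4 and the target Hey1. Of 20 Notch genes 14 were measured, 5 higher and none lower, beside 8.21% and 8.74% of all genes. Their median log2 ratio was 0.42. Jag1 was at 600.3 CPM in members, 91.4 in all other cells and 109 in arterial-marker cells, with 746, 554, 538 and 525 CPM on the 4 plates of members and 110.0, 77.2, 75.6 and 101 in other cells. The lowest plate of members was above the highest plate of other cells, and how many of all genes do so was not counted. Jag2, another ligand, was at 410.5, 97.3 and 151 CPM in the same order, while the ligand Dll4 was level, as given above. Among receptors, Notch4 was at 294 against 128 (1.19) and Notch2 at 58.9 against 22.7 (1.34), while Notch1 was at 289.9 against 264 (0.13). Among targets, Hey1 was at 315 against 84.5 (1.88) and Hes1 at 174 against 177 (-0.02). Against arterial-marker cells 4 of 13 genes were higher and none lower, beside 8.18% and 8.44% of all genes. The median was 0.24, with -0.04, -0.01, 0.59 and -0.21 on the 4 plates. That median is small and differed in sign between plates.

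Of 20 arterial transcription factors 13 were measured, 6 higher and none lower, beside 8.21% and 8.74% of all genes, with a median of 0.95. Sox17, which specifies arterial fate, was at 649 CPM against 246 (1.39), Gata2 at 453 against 190.5 (1.24), Mecom at 397 against 172 (1.20) and Klf4, a factor induced by flow, at 490.2 against 224 (1.13). Klf2, also induced by flow, was at 709 against 366 (0.95), just short of 2-fold. Plagl1, a zinc finger gene, had the largest ratio (3.68) but not on every plate, as given below. It was under 20 CPM in all other cells, so it was measured only through the members. Of 11 measured genes of the response to shear, 1 was higher and 2 lower, beside 8.21% and 8.74% of all genes. The higher count was thus near that of all genes.

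Channels and junctions between cells differed by type. Of 20 connexins and ion channels 11 were measured, 6 higher and 2 lower, beside 8.21% and 8.74% of all genes. Their median log2 ratio was 1.65. Gja5, Trpv4, Kcnn4 and Atp2a3 were under 20 CPM in all other cells. They were measured only through the members and had to come out higher. With a filter at 5 CPM, or with none, the median over more genes of the list was 0.34. Gja4, connexin 37, was at 423 CPM in members, 23.4 in all other cells and 90.6 in arterial-marker cells, with 566, 421, 327 and 336 CPM on the 4 plates. Gja5, connexin 40, was at 70.3, 2.25 and 4.30 CPM. Gja1, connexin 43, went the other way, at 62.3, 192 and 287 CPM, a log2 ratio of -1.61 against all other cells. Trpv4, a calcium channel, was at 247 against 13.5 CPM with 215, 269.8, 246 and 266 CPM by plate, and Kcnn4, the intermediate-conductance potassium channel, at 26.7 against 0.0428, at 50 CPM in 7 members and no other cell. Against arterial-marker cells 5 of 11 were higher and 2 lower, beside 8.18% and 8.44% of all genes, with a median of 0.77.

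Junction genes were level as a list, though not each of them. Of 19 genes 18 were measured, 3 higher and none lower, beside 8.21% and 8.74% of all genes, with a median of -0.04. Cldn5 was at 3886 against 4046 CPM, Cdh5, VE-cadherin, at 367 against 397, and Ocln, occludin, at 453 against 742. Ocln was lower in members on every plate. Esam, another gene of the list, was too, at 908, 1016, 1395 and 1199 CPM against 1949, 2014, 1617 and 1494 in other cells. The 3 that were higher were Cdh13, T-cadherin (369.7 against 28.6), Dsp and Jam3, the last of which was lower on plate 521 (1.62 against 27.5 CPM). Dsp and Jam3 were under 20 CPM in all other cells, so they were measured only through the members. Of 11 genes of caveolae and vesicles 9 were measured and 2 were higher, beside 8.21% of all genes. These 2 were Cav1 at 994 against 492 CPM and Ehd2 at 558 against 196.

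Vasoactive genes were led by Nos1 and Gper1 and included Ace, angiotensin-converting enzyme, at 155 against 28.8 CPM (2.39), P2ry2, a nucleotide receptor, at 70.1 against 6.82 (3.18), and Ptgis, prostacyclin synthase, at 212 against 99.95 (1.08). P2ry2 was at 0 in members on plate 523 and 4.92 CPM in other cells there. Nos1, Gper1 and P2ry2 were under 20 CPM in all other cells, so they were measured only through the members. Of 24 genes 17 were measured, 7 higher and 2 lower, beside 8.21% and 8.74% of all genes. The lower ones included Adm, adrenomedullin (9.31 against 85.4). Edn1, endothelin-1, was at 664 against 469.8 and below the 721 CPM of arterial-marker cells. Of 26 TGF-beta and BMP genes 21 were measured, 5 higher and 2 lower, beside 8.21% and 8.74% of all genes, so the lower count was near that of all genes. Bmp2, a ligand, was at 50.2 against 1.31 CPM (4.47), and rested mostly on plate 521, with 148, 4.62, 23.9 and 0 CPM in members by plate. Bmp6 was at 179.7 against 48.4 (1.87), and the inhibitors Smad6 and Smad7 had log2 ratios of 1.95 and 1.37. Bmp2 and Smad6 were under 20 CPM in all other cells, so they were measured only through the members. Among the receptors, Acvrl1 was at 0.52, higher on every plate but short of 2-fold, Tgfbr2 at 0.04 and Tgfbr3 at -1.74.

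Barrier transporters were mostly lower. All 24 transporters were measured, 17 lower and 1 higher, beside 8.74% of all genes lower, with a median of -2.18 and plate values of -2.20, -2.05, -2.01 and -2.32. Slc22a8, an organic anion transporter, was at 151 CPM against 996, Slco2b1 at 72.4 against 568, and Slc38a3, a glutamine transporter, at 59.2 against 784. Some transporters were nearly level. Slc2a1, the glucose transporter, was at 2716 against 3469.8 (-0.35) and Abcb1a, P-glycoprotein, at 777 against 1081 (-0.48). Slc6a6, the taurine transporter, was the one that was higher, at 4262 against 1894 CPM, with 3529.6, 4909.5, 4093 and 4686 CPM in members by plate. In other cells it was at 1021, 1581, 2301 and 2644 CPM, so the ratio was smaller on plates 523 and 524. Against arterial-marker cells 22 were measured, 15 lower and none higher, beside 8.44% and 8.18% of all genes, with a median of -1.65.

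Of the 10 capillary markers 8 were lower and 1 higher, beside 8.74% and 8.21% of all genes, with a median of -2.38 against all other cells. Against arterial-marker cells 6 were lower and 1 higher, beside 8.44% and 8.18% of all genes, with a median of -1.31. The higher one was Spp1, which was high in both members with fibroblast genes. Spp1 was under 20 CPM in all other cells, so it was measured only through the members. Car4, carbonic anhydrase 4, was at 36.1, 699 and 63.5 CPM in members, all other cells and arterial-marker cells, and Mfsd2a at 63.7, 637 and 672. Car4 was thus already low in arterial-marker cells, and Mfsd2a was not. Of 18 measured Wnt genes 4 were lower and 1 higher, Sox17, beside 8.74% and 8.21% of all genes. Their median was -0.35. The lower ones included the target genes Apcdd1 (52.8 against 403 CPM) and Nkd1 (34.6 against 283), and Lef1, the transcription factor of the pathway (337 against 698). Of 12 measured VEGF and TIE genes 6 were lower and 1 higher, beside 8.74% and 8.21% of all genes. Among the lower ones, Apln, the apelin ligand, was at 0.141 against 144 CPM and Kdr, VEGF receptor 2, at 288 against 671. The higher one was Vegfc, at 210.1 against 10.3, which was measured only through the members. The receptors Tek and Flt1 were at 0.43 and -0.13 on the log2 scale.

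Vein genes were mixed. Of 10 measured, 1 was higher and 4 lower, beside 8.21% and 8.74% of all genes, with a median of -0.66. The higher count was thus near that of all genes. Slc38a5 was at 45.1 against 425 CPM and Lcn2 at 0.0470 against 20.1. Vcam1, the leukocyte adhesion molecule, was the one that was higher, at 753 against 167 CPM (2.16) and 124 in arterial-marker cells. It reached 50 CPM in 34 members. Vwf was at 1131 against 817, but its direction differed between plates. Members held 824, 1132, 1741 and 814 CPM of Vwf on plates 521 to 524, and other cells 1628, 1092, 328 and 237. One member with 2 rule genes, on plate 523, had Slc38a5 at 2538 CPM and Nr2f2, the vein transcription factor, at 319 CPM, and none of the 5 arterial genes at 50 CPM, and 3 members in all had Nr2f2 at 100 CPM or more. Of 16 measured interferon genes none differed 2-fold, beside the same shares of all genes.

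**Figure D4:**
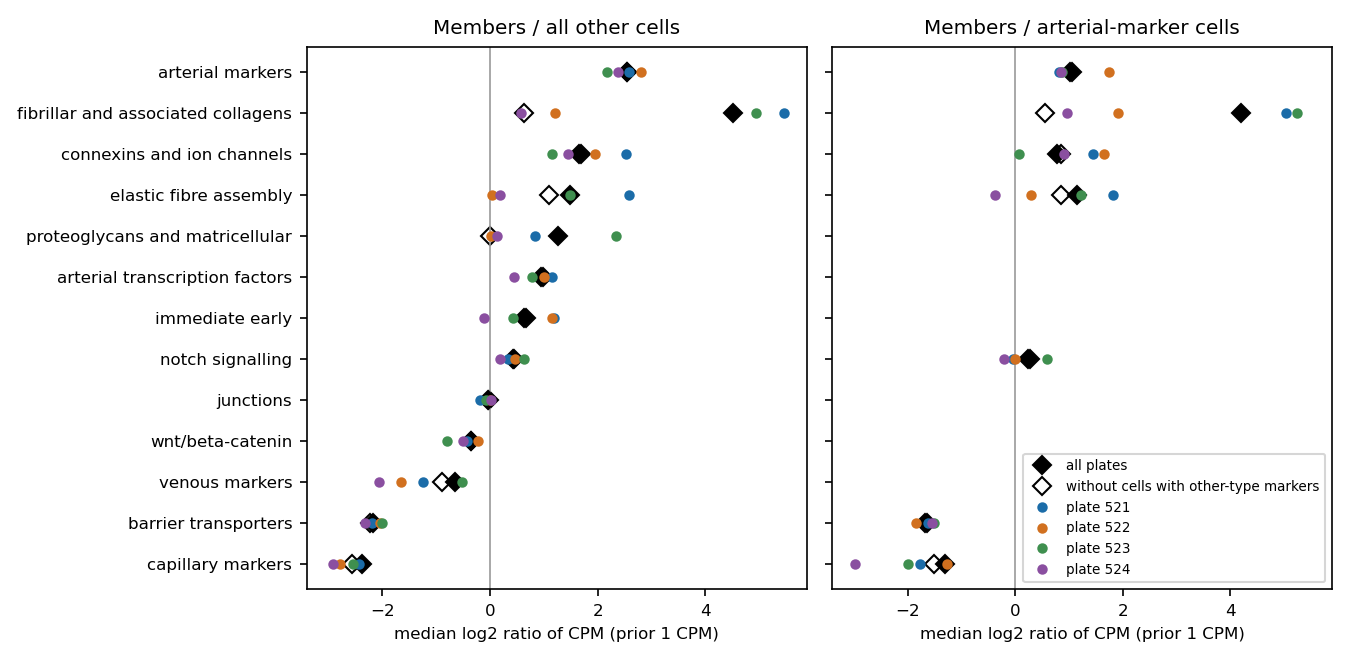
Median log2 ratio of summed CPM (prior 1 CPM) for gene lists, in members against all other cells on the left and against arterial-marker cells on the right. Black diamonds are all plates, open diamonds the same without cells with markers of another cell type, and coloured points the 4 plates. Arterial markers lie right of 0 and barrier transporters and capillary markers left of 0 on every plate, and the collagen median moves from 4.52 to 0.63 without the cells with other markers.

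Immediate early genes, which can respond to cell dissociation as well as to flow, were higher in several cases. Of 17 genes 16 were measured, 5 higher and none lower, beside 8.21% and 8.74% of all genes. The median was 0.62, with plate values of 1.18, 1.14, 0.43 and -0.12. Fos was at 1946 CPM against 755, with 1952, 2595, 1843 and 1194 CPM in members by plate and 496, 736, 949 and 842 in other cells. Egr1 was at 445 against 143 and Nr4a1 at 767 against 244. The median had the other sign on plate 524, where Nr4a1 was at 259 CPM in members and 271 in other cells. The part that dissociation had in these values, and in those of Klf2 and Klf4, was not tested. Of 15 measured cytoskeleton, S100 and annexin genes 5 were higher and none lower, beside 8.21% and 8.74% of all genes. They were led by S100a6 (37.0 against 2.20 CPM), measured only through the members, and Lmna, lamin A/C (123 against 36.2). Anxa1, an annexin gene also among the higher ones, was measured only through the members too.

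Markers of other cell types were examined as whole lists. Of 11 smooth muscle markers 2 were at 0 in the members and 6 were under 1 CPM, and their summed level was 117 CPM in members and 33.2 in all other cells, with a range over members of 0 to 827 CPM. Only Mylk, a myosin kinase that endothelium also uses, reached 20 CPM (94.7 against 17.0), and Acta2, Tagln and Myh11 were at 0.141, 0.564 and 1.74 CPM. Fibroblast markers summed to 606 CPM in all members, 64.8 in the 57 kept members and 328 in all other cells, and pericyte markers to 228, 51.3 and 72.8 CPM. The 57 kept members were also chosen by the rule genes, so the levels of those genes there are a description only. Fbln5 was at 889 CPM in the kept members, Fbln2 at 524, Mgp at 584, Eln at 276 and Fbn1 at 143. Microglial markers summed to 106 CPM in members and 117 in all other cells.

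Many genes differed between plates in the members. Of 6326 genes at 50 CPM and with a read in 25% of members on the highest plate, 2297 (36.3%) differed at least 4-fold between the highest and lowest plate in the members, against 135 (2.13%) of the same genes in all other cells. The members number 12 to 17 a plate and the other cells many times more, so the sets differ in how many cells stand behind each value. The 8 largest ranges were those of Pla2g4a, Plagl1, Uba2, Cldn12, Kpna1, Map2k4, Arl5b and Sptlc1. Pla2g4a, cytosolic phospholipase A2, was at 284, 120.2, 0 and 167 CPM in members on plates 521 to 524 and at 48.8, 30.7, 38.8 and 31.1 in other cells. Plagl1 was at 275, 73.7, 54.5 and 0 CPM in members and at 23.9, 7.34, 0.0410 and 0.0286 in other cells, so it alone of the 8 differed over 4-fold between the same plates in other cells too. Uba2, a SUMO-activating enzyme subunit, was at 168, 168, 242 and 0 CPM in members and 129, 131, 149.8 and 135 in other cells.

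Some genes that differed between plates in the other cells were near 0 in the members on every plate. Angpt2 was at 538, 317, 50.9 and 31.1 CPM in other cells on plates 521 to 524 and at 1.46, 0.355, 0.759 and 0.477 in members. Apln was at 362, 213, 0.0102 and 3.93 CPM in other cells and 0.324, 0.178, 0 and 0 in members, and Fmo2 at 243, 299.7, 32.2 and 19.6 and 0.486, 0.355, 0 and 0. Vcam1 differed on both sides, at 343, 235, 42.4 and 53.0 CPM in other cells and 1294, 533, 571 and 479 in members. Mfsd2a was at 209, 565, 890.0 and 883 CPM in other cells and 11.8, 10.8, 176 and 70.8 in members. Plates 521 and 522 together hold 590 cells and plates 523 and 524 hold 597, the same numbers as the labels give for ret/+ and ret/ret. No label ties a plate to a genotype, so these counts were not used as a map, and plate, animal and genotype cannot be told apart.

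**Figure D5:**
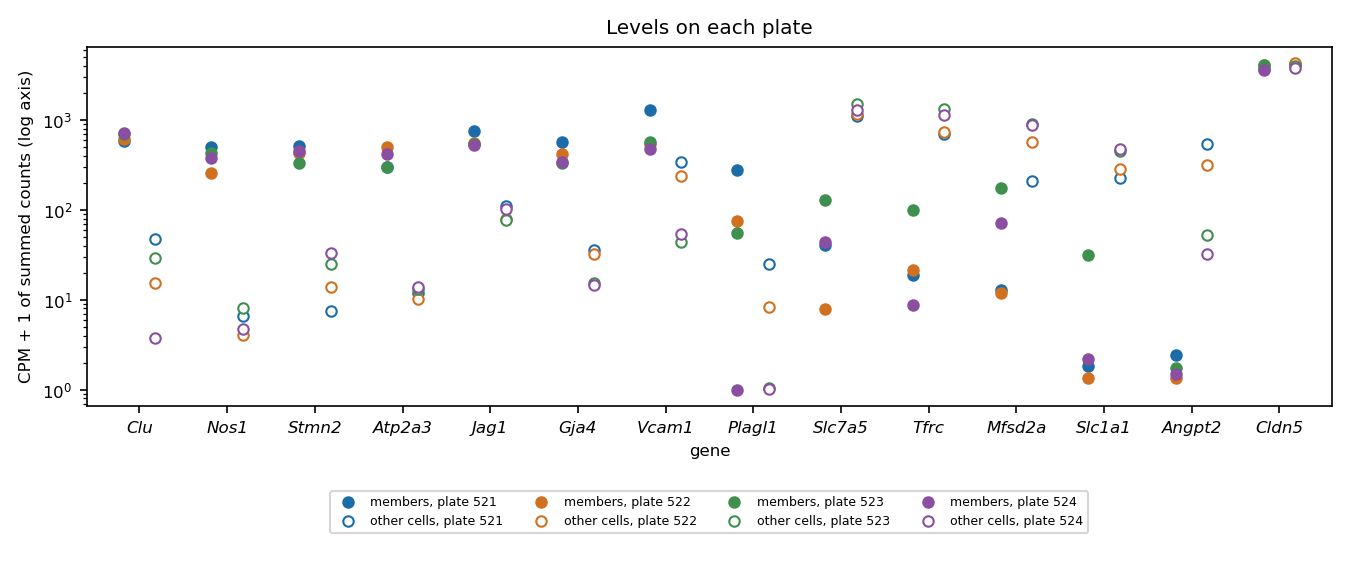
Summed CPM + 1 (log axis) of 14 genes on plates 521 to 524, with filled points for members and open points for all other cells. Clu, Nos1 and Jag1 were higher and Slc7a5, Tfrc and Angpt2 lower in members than in other cells on every plate, and Cldn5 was level. For Clu, Nos1, Slc7a5, Tfrc and Angpt2 that direction was fixed by how the genes were chosen.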

How the data were processed

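Brain endothelial cells were sequenced one by one with Smart-seq2. The authors deposited raw read counts, whole numbers, in a table of 46517 genes by 1187 cells from 4 plates. The submitters' processing notes name TopHat2 2.1.1, the builds GRCm38 and mm10, SAMtools 0.1.18, Subread 1.4.6-p5 and featureCounts, with no role given. Whether counting used strand was not stated in any source used here. Cells had 100779 to 584112 reads, and intervals cover counting error only.

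The members, the gene lists and the comparisons were chosen with earlier results of these data known. Counts were summed over cells and scaled to CPM with Python 3.11.15 and pandas 2.3.3. Genes at 20 CPM on either side were compared as log2 ratios with a prior of 1 CPM, and a ratio of at least 1 in size counts as different. List medians leave out the rule genes. Named genes had 20 CPM and a read in 25% of the cells of the higher side, after each cell was thinned to 100000 reads (seed 1), and 1 direction on all plates and in the mean of each cell's CPM: the 15 largest up and 10 down against all other cells, and 10 each way against arterial-marker cells. Of each list, up to 4 genes with the largest ratios and the most abundant were named, with some others of known role added after values were seen. Predicted genes were passed over. The ratio code was tested on simulated data. Alternatives were other thresholds, rule genes, filters, priors, mean CPM, edgeR 4.0.16 TMM scaling, thinning, and leaving out plates or cells. Gene coordinates are from GENCODE M21. No genotype comparison was made, because no column carries a genotype.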

Additional observations from a re-analysis of the deposited data

How the results depend on the processing

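Directions of the 25 genes named against all other cells held in all 500 alternative values, and those of the 20 named against arterial-marker cells in all 420, each at least 2-fold, but these genes were chosen for large ratios of 1 direction on every plate and in mean CPM, which fixed much of this. With at least 3 rule genes the share of members was 3.37%. Requiring 3 rule genes turned the collagen medians to -0.23 (all other cells) and -1.36 (arterial-marker cells) and the proteoglycan median to -0.14. It moved the medians of venous markers to -2.19, capillary markers to -3.16 and -3.51, Notch genes to 0.19 and barrier transporters to -2.67 and -2.09. A rule without Fbln5 turned the collagen medians to -0.55 and -1.76 and the proteoglycan median to -0.056, with capillary medians of -3.05 and -2.29. A rule without Fbln2 gave collagen medians of -0.40 and -1.56, a proteoglycan median of 0.087, capillary medians of -2.94 and -2.26 and a barrier median of -2.48. The barrier median was -2.36 without Mgp, -2.57 and -1.89 without Eln, -1.97 and -1.50 at 25 CPM, -2.52 and -1.93 at 100 CPM, and -1.44 against cells with at least 3 arterial genes. Without cells with markers of another cell type the collagen medians were 0.63 and 0.55 and the proteoglycan median 0.0039. Leaving those cells out did not turn the sign. The rules that did also took the 2 members with fibroblast genes, and other members, out of the set. Those 2 then lay among all other cells. Only 1 of them had 2 arterial genes and so lay among the arterial-marker cells. The cause was not tested.

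A filter at 5 CPM gave 1355 genes higher and 1516 lower than in all other cells, and 1418 and 1447 against arterial-marker cells, because more genes were tested. No filter gave 1956 and 2608, and 2145 and 2617. These filters put the Notch median at 0.62 and 0.18, the connexin median at 0.34 and 0.34, and the barrier median against arterial-marker cells at -1.85 in both. Leaving out 1 plate at a time left 43 to 48 members, 4.85 to 5.49% of cells, with 816 to 903 genes higher and 937 to 1010 lower than all other cells, a Notch median of 0.37 to 0.62 and a junction median of -0.067 to 0.066. Leaving out the 5 members with fewer than 2 arterial genes, an alternative chosen after seeing the data, left 760 genes higher and 846 lower.

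No paired analysis was possible because no column carries a genotype, animal or replicate number. With 12 to 17 members a plate, values of genes read in few members vary with single cells. No gene had more than 3396 reads in a cell, 1.45% of its reads at most, and whether the most abundant genes are compressed was not tested.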
